A study of Mus musculus with 35 samples.

Results

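The regions described here are the broad H3K4me3 domains of the newborn mouse retina. They are the peaks of wild-type postnatal day 0 (P0) replicate 2 that spanned at least 3000 bp and overlapped, by at least 1 bp, a peak of at least 3000 bp in P0 replicate 1. Of the 21661 H3K4me3 peaks of replicate 2, 920 met this rule (4.25%), and they held 12.4% of the bases covered by H3K4me3 in that library. The domains were thus chosen by their P0 H3K4me3 widths, and widths and heights of H3K4me3 at P0 are given as a description. Brg1, H3K27Ac, H3K27me3 and the H3K4me3 libraries of later stages played no part in the choice.

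H3K4me3, the trimethylation of lysine 4 of histone H3, marks the nucleosomes around active and poised promoters. At most promoters it covers a short stretch, whereas domains that extend over several kilobases are known to lie at genes that define the identity of a cell type. H3K27Ac, an acetylation, marks enhancers and promoters in use, and H3K27me3 is laid down by Polycomb complexes at repressed genes. Where H3K4me3 and H3K27me3 lie together, a promoter is called bivalent. Brg1 (also known as Smarca4) is an ATPase of the BAF chromatin remodelling complexes, which move nucleosomes with the energy of ATP.

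The study used ChIP-Seq of whole retinae to set the binding of Brg1 beside histone marks during differentiation and after loss of Brg1. Brg1 was measured once, with an anti-FLAG antibody in P0 retinae of BRG-FLAG knock-in mice, supplied as flash-frozen tissue. Histone marks were measured in wildtype retinae at P0, P12, P14 and P21 and in P12 retinae with the genotype BRG1 -/-, which the study made with Chx10-Cre and Brg1 Lox/Lox alleles. The Cre transgene is active in retinal progenitor cells in a mosaic pattern, so these retinae also hold cells that keep Brg1, and the study favoured animals with small eyes to hold their number down. How many remained in each library is not known. For H3K4me3 there were 2 libraries each at P0, P14 and P21, 1 wild-type library at P12 and 1 Brg1-deficient library at P12. For H3K27Ac there were 2 libraries each at P0, P14 and P21, 1 wild-type library at P12 and 2 Brg1-deficient libraries at P12. For H3K27me3 there were 2 libraries each at P0, P14 and P21, 2 wild-type libraries at P12 and 1 Brg1-deficient library at P12. Neither the strain nor the number of animals per library is given in the labels. The study describes its ChIP-Seq replicates as biological, but the labels do not tie them to animals, so p-values measure the spread between these samples. The P14 H3K4me3 libraries carry the numbers 2 and 3 in their titles and 1 and 2 in their peak lists, and the titles are followed here.

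The authors called peaks in each library alone, and each peak carries a fold enrichment over background at its summit, called its height here. Read depth is unknown from peak lists. The number of H3K4me3 peaks lay between 18534 and 24124 per library, and the number of H3K27Ac peaks between 17433 and 50005. At P14 one H3K27Ac library held 17433 peaks and the other 50005, and at P21 the numbers were 18718 and 45833. The H3K4me3 libraries of P21 stood apart from each other in width and height, with 1933 peaks of at least 3000 bp in replicate 1 and 869 in replicate 2. Positions are on the mm9 build, of which no annotation or genome was used here, so domains are named by position and not by gene. For the same reason the retinal identity of the tissue was not checked against marker genes, and without a Brg1 library from Brg1-deficient retinae the loss of Brg1 was not checked either.

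The domains spanned between 3000 and 20785 bp in P0 replicate 1, with a median of 3556 bp. In replicate 2 they spanned between 3007 and 23071 bp, with a median of 3874 bp and quartiles of 3438 and 4716 bp. There were 269 domains of at least 4000 bp in both replicates, 106 of at least 5000 bp, 48 of at least 6000 bp and 14 of at least 8000 bp, and 8 exceeded 10000 bp in both. Their height in replicate 2 lay between 11.0 and 89.8, with a median of 42.7. With each domain cut into 3 equal parts, the summit lay in the central one in 487 cases (52.9%), and its median distance from the nearer edge was 1389 bp. Among the H3K4me3 peaks found in both P0 replicates, the share that were broad domains ranged from 3.16% on chromosome X to 7.12% on chromosome 18, and none lay on chromosome Y. Of the 1421 peaks of at least 3000 bp in replicate 2, 64.7% were domains, and a further 501 were found in replicate 1 but spanned under 3000 bp there.

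At the limit of the rule the members differed from the excluded peaks by a few bases. The domains chr10:62484498-62487980, chr12:70472115-70475200 and chr1:38053035-38056152 each spanned 3000 bp in replicate 1 and 3483, 3086 and 3118 bp in replicate 2. Just outside lay chr8:47824352-47827583 with 2998 bp in replicate 1 and 3232 bp in replicate 2, chr12:8504193-8507639 with 2998 and 3447 bp, and chr19:41903789-41906950 with 2997 and 3162 bp. The peaks of 2000 bp to under 3000 bp in replicate 2 that were also found in replicate 1 numbered 3992, and they serve below as the class next in width.

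By the mean of both P0 widths the widest domain was chr17:86006833-86027783, which spanned 20785 bp in P0 replicate 1 and 20951 bp in replicate 2. It held 2 Brg1 peaks, the widest of 14848 bp and the highest with a fold enrichment of 18.3. Next came chr13:83858462-83881532, with 17335 and 23071 bp, the widest in replicate 2, and 9 Brg1 peaks, the most in any domain. The third, chr3:17683013-17697173, spanned 13744 and 14161 bp, and the fourth, chr11:85642255-85655759, spanned 13348 and 13505 bp with 2 Brg1 peaks, the wider of 13148 bp. The fifth and sixth, chr2:105506316-105518483 (11887 and 12168 bp) and chr2:105518562-105530934 (11508 and 12373 bp), lay side by side. Together with 1 more domain they formed the single run of 3 domains at most 20000 bp apart, which spanned 31387 bp of chromosome 2 with 28673 bp inside domains. The remaining 4 of the 10 widest were chr2:173089450-173103397 (9536 and 13948 bp), chr11:18907188-18921730 (8464 and 14543 bp), chr12:74037389-74049780 (10524 and 12392 bp) and chr7:152119472-152129684 (11147 and 10213 bp).

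All but 13 of the broad domains carried Brg1 at P0. A Brg1 peak overlapped 907 of 920 (98.6%, Wilson 95% interval 97.6 to 99.2%), against 3764 of 3992 (94.3%, interval 93.5 to 95%) of the peaks next in width and 66.2% of narrower ones. These intervals cover counting error only. A wide peak meets other peaks more often by its length alone, so the summit was used as well. At the single base of the H3K4me3 summit Brg1 was present in 86.8% of the domains, 79.2% of the class next in width and 54.4% of narrower peaks. Brg1 peaks covered 68.6% of the bases of the domains and 56.3% of those of the class next in width.

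The highest and the widest Brg1 peak of a region also had larger values in the domains than in the class next in width. The domains held a mean of 2.11 Brg1 peaks each and the class next in width 1.47. A longer region can thus reach a higher maximum by its length alone, and this was not corrected for. The highest Brg1 peak had a median fold enrichment of 9.0 where present, against 6.75 in the class next in width. Ranked among all 50861 Brg1 peaks, this highest peak lay at a median percentile of 95.5, and in 71.3% of the domains with Brg1 it lay above the percentile of 90. The domains held 1937 Brg1 peaks (3.81% of all), 271 of the 1024 Brg1 peaks of at least 3000 bp (26.5%) and 195 of the 500 highest. A Brg1 peak of at least 3000 bp lay in 252 domains (27.4%), against 130 (3.26%) of the class next in width. In 271 domains there was 1 Brg1 peak, in 366 there were 2, and in 270 there were 3 or more. With a single Brg1 library none of these values has a replicate error.

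Within a domain the Brg1 and H3K27Ac summits were spread over its breadth. Brg1 summits in the 250-bp bins on either side of the domain centre numbered 12.1 and 15.2 per 100 domains, against 23.8 and 23.7 per 100 peaks in the class next in width. At 1375 bp from the centre the order was the other way around, with 9.5 and 9.9 summits per 100 domains and 3.7 and 3.4 per 100 peaks next in width. H3K27Ac summits of P0 replicate 2 numbered 15.2 and 12.3 per 100 domains at the centre and 9.8 and 9.5 at 1375 bp, against 0.5 and 0.4 at that distance in the class next in width. The highest Brg1 summit of a domain lay a median of 403 bp from its H3K4me3 summit, and within 500 bp in 55.7%. The plot of summits by distance gives both classes. A distance of 1375 bp lies inside every domain and near or beyond the edge of the peaks next in width, so the profiles differ in part by how the classes were chosen.

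**Figure D1:**
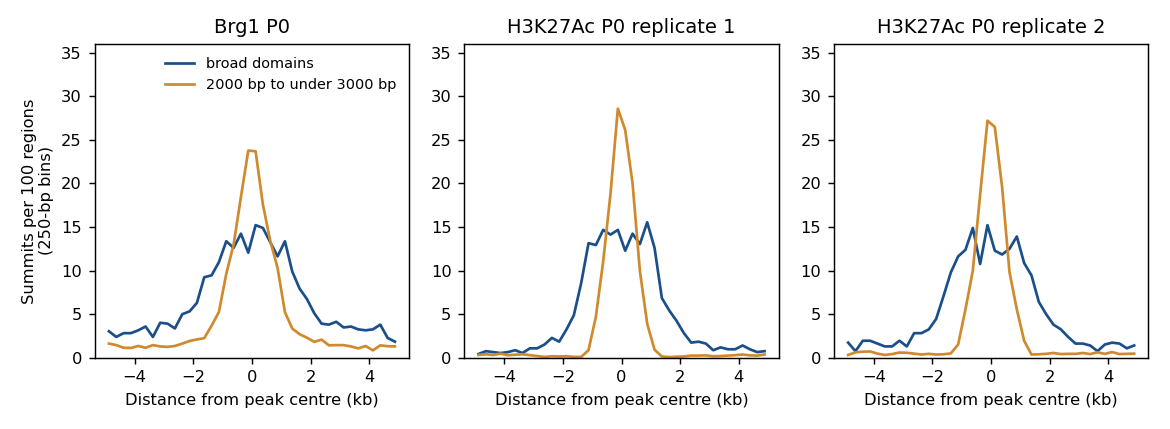
Summits per 100 regions in 250-bp bins by distance from the centre of the P0 H3K4me3 peak in kb, for Brg1 and the 2 P0 H3K27Ac libraries. Blue lines are the 920 broad domains and orange lines the 3992 peaks of 2000 bp to under 3000 bp, whose summits were closer to the centre.

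The 5 domains with the highest Brg1 were of ordinary to large width. The domain chr5:123585297-123595265 held the highest Brg1 peak, with a fold enrichment of 35.7, and its H3K4me3 spanned 4440 and 9969 bp at P0. The domain chr18:65741767-65744783 followed with 30.5 at widths of 3022 and 3017 bp. Then came chr19:5796154-5803702 and chr1:88421860-88426558, both with a Brg1 fold enrichment of 24.9, and chr5:143574295-143585745 with 22.8. The Brg1 peak over chr19:5796154-5803702 spanned 9567 bp, more than the domain itself with 6915 and 7549 bp. That over chr5:143574295-143585745 spanned 13464 bp, also more than its domain.

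The 13 domains without Brg1 were mixed in their other marks. The widest, chr16:52450288-52454880, spanned 4633 and 4593 bp and carried H3K27me3 in every library. The second, chr7:16459700-16465282, spanned 3218 and 5583 bp at P0 and carried H3K27me3 in none. No H3K27Ac peak overlapped it in P0 replicate 1, and the height was 5.37 in replicate 2. The domains chrX:117403058-117407388 (4156 and 4331 bp) and chr13:21258546-21262280 (3772 and 3735 bp) were also without Brg1. At chr17:93599186-93603578 (3740 and 4393 bp) no H3K27Ac peak was called in any of the 9 libraries and H3K27me3 was called in all of its 9.

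H3K27Ac lay in most of the domains at P0. It was called in 831 domains in replicate 1 (90.3%) and 875 in replicate 2 (95.1%), and in both replicates in 829 (90.1%, interval 88.0 to 91.9%), against 88.8% of the class next in width. At the H3K4me3 summit itself 782 domains (85.0%) had H3K27Ac in both replicates. Its peaks covered 35.2% and 54.0% of the bases of the domains in the 2 libraries, with a median height where present of 11.6 and 11.7. In 48 domains H3K27Ac was called in 1 replicate and in 43 (4.67%) in neither. Of these 43, 39 carried H3K27me3 in both P0 replicates and 8 lacked Brg1.

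H3K27me3 was called over 280 domains in both P0 replicates (30.4%, interval 27.6 to 33.5%), over 59 in 1 replicate and over 581 in neither. The share was 21.1% (interval 19.8 to 22.4%) in the class next in width and 31.4% in narrower peaks. The bivalent domains had less H3K27Ac, with median heights of 5.23 and 6.07 in the P0 libraries against 13.7 and 13.6 in domains without H3K27me3, counting a domain without a peak as 0. Their median Brg1 fold enrichment was 7.59, against 9.56. In a whole retina the marks of a region may come from different cells, and fewer cells carrying a mark cannot be told apart from less of the mark per cell.

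At later stages the domains were narrower than at P0. The widest H3K4me3 peak over a domain had a median of 3169 bp in the wild-type P12 library, 2841 and 3096 bp in P14 replicates 2 and 3, and 3512 and 2916 bp in P21 replicates 1 and 2. In the class next in width the medians were 2129.5 and 2335 bp at P0 and 2099.5 bp at P12. They were 1911 and 2058 bp at P14 and 2380.5 and 1954 bp at P21. Lower medians at P12, at P14 and in P21 replicate 2 were thus not particular to the domains. At least 3000 bp remained in 550 domains at P12 (59.8%, interval 56.6 to 62.9%), in 389 (42.3%) and 506 (55.0%) at P14, and in 642 (69.8%) and 428 (46.5%) at P21. Both P14 libraries were broad at 374 domains (40.7%) and both P21 libraries at 420 (45.7%). The median ratio of the later width to that of P0 replicate 2 was 0.822 at P12, 0.704 and 0.796 at P14 and 0.916 and 0.735 at P21. Because a P0 width of at least 3000 bp chose the domains, no test was made of the change from P0. Between P14 and P21, the libraries of a stage differed from each other by as much as the stages did, as the plot of widths by library shows. The P0 medians, 3556 and 3874 bp, lay above that of every later library.

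**Figure D2:**
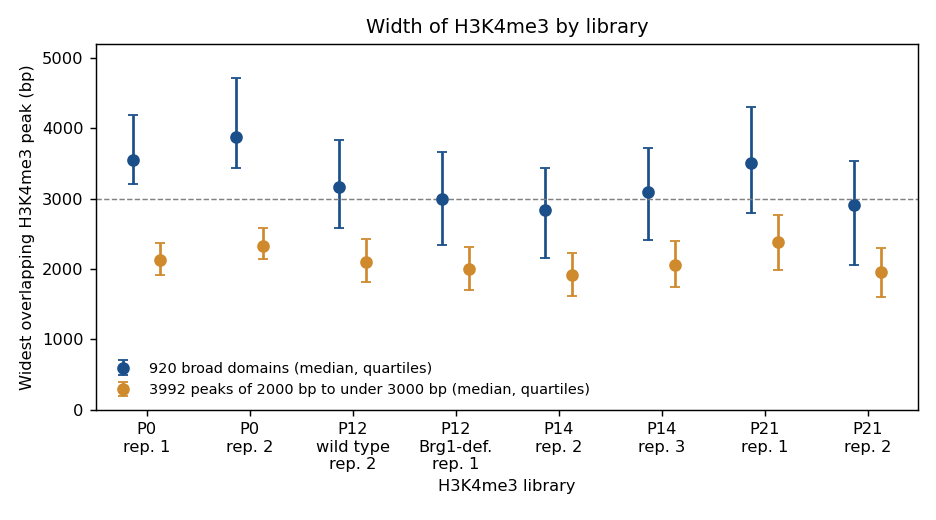
Width in bp of the widest H3K4me3 peak overlapping each P0 region, by library, with points at the median and bars from the lower to the upper quartile. The 920 broad domains (blue) lay above the 3992 peaks of 2000 bp to under 3000 bp (orange) in every library, and the dashed line marks 3000 bp.

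The domains nonetheless stayed among the widest H3K4me3 peaks of each later library. Their median percentile of width lay between 94.8 and 96.2 in the later libraries, the Brg1-deficient one included, and between 65.9% and 78.5% of those with a peak lay above the percentile of 90. Of the class next in width, 5.71% reached 3000 bp in the wild-type P12 library, 3.23% and 5.29% at P14 and 16.3% and 4.56% at P21. Few domains were without H3K4me3 later. No peak was called over 3 domains at P12, over 6 and 4 at P14 and over 4 and 12 at P21. Between 252 and 325 domains in each later wild-type library lay over several separate H3K4me3 peaks.

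Over the 5 later wild-type libraries, 322 domains (35.0%) were broad in every one and 240 (26.1%) in none. A further 93, 88, 72 and 105 were broad in 1, 2, 3 and 4 of them. Wider domains at P0 were broad later more often. When the domains were ranked by mean P0 width and cut into 4 groups of equal number, in the narrowest (3014.5 to 3355.5 bp) 17.8% were broad in all 5 later libraries and 31.7% in none, whereas in the widest (4468.5 to 20868 bp) the shares were 50.9% and 19.1%. The limit for broad was 3000 bp at all stages, and the narrowest group lay closest to it at P0. How far the relation follows from this distance to the limit was not tested. The widest group also had a higher median Brg1 fold enrichment, 10.7 against 7.82 in the narrowest, and wider Brg1 peaks, with a median of 3159 bp against 1586 bp.

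The domains that stayed broad differed from those that did not in marks already present at P0. The 322 domains broad in all 5 later libraries had a median H3K27Ac height of 13.1 in P0 replicate 2, against 8.94 in the 240 that were broad in none. Their median Brg1 fold enrichment was 9.81 against 7.79, and their median Brg1 width 2462 bp against 1738 bp. The 322 domains were also wider at P0, with median H3K4me3 widths of 3856 and 4200.5 bp against 3375.5 and 3716.5 bp. Brg1 was higher and wider in wider domains, as given above, so these Brg1 differences were not separated from P0 width. H3K27me3 in both P0 replicates was found in 23.0% of the 322 and 42.5% of the 240. Later H3K27Ac differed more, with median heights of 14.6 and 4.56 in the wild-type P12 library and 19.3 and 5.78 in P14 replicate 2. Of the 43 domains without H3K27Ac at P0, 1 (2.33%) was broad in all later libraries and 33 (76.7%) in none. These are descriptions of groups of domains within the same libraries, and no test was made between them.

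The 10 widest domains were picked as the most extreme P0 widths, so their smaller widths later are a description and no finding. The widest, chr17:86006833-86027783, measured 4339 bp in wild-type P12 retinae, 3951 and 4334 bp at P14 and 4225 and 3525 bp at P21. These are the widths of the widest single peak, and in the later libraries the domain lay over 4 to 9 separate peaks, which together covered 13344 bp of it at P12, 9836 and 10837 bp at P14 and 13900 and 7365 bp at P21. The second, chr13:83858462-83881532, measured 5388 bp at P12, 3533 and 5514 bp at P14, and 8853 and 3299 bp at P21, while its separate peaks together covered between 11474 and 17469 bp. The P21 libraries disagreed here and at chr2:105506316-105518483, with 8913 and 1609 bp. By contrast, chr3:17683013-17697173 measured 4921 bp at P12 and 3611 and 4963 bp at P14 but 16261 and 13802 bp at P21, in both libraries at or near its P0 width. Covered bases differed less between stages. All peaks over this domain together covered 10376 bp of it at P12, 10712 and 10751 bp at P14, and 13616 and 12495 bp at P21. Its H3K27Ac height was 15.1 and 18.9 at P0, 27.5 in wild-type P12 retinae, 33.9 and 32.9 at P14 and 21.5 and 22.4 at P21. The domain chr11:18907188-18921730 kept 7589 bp at P12, 4123 and 7896 bp at P14, and 8482 and 8057 bp at P21. At the other end, chr2:105518562-105530934 measured 1118 and 1804 bp at P14 with 4205 and 4522 bp covered in all, and chr7:152119472-152129684 measured 1663 and 2939 bp.

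**Figure D3:**
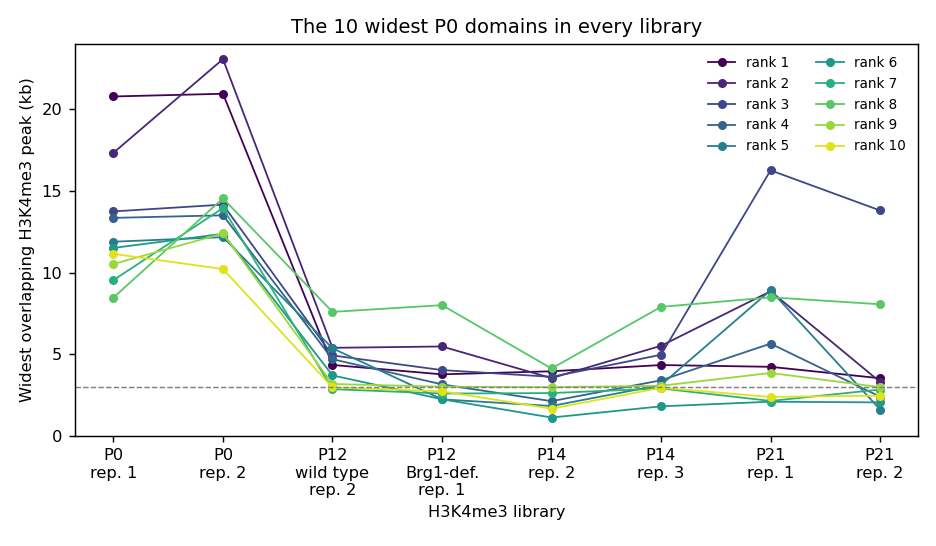
Width in kb of the widest H3K4me3 peak over each of the 10 widest P0 domains (lines, ranked by mean P0 width) in the 8 H3K4me3 libraries, with a dashed line at 3 kb. Rank 3 measured 16261 and 13802 bp at P21, rank 8 measured 4123 to 8482 bp in the later libraries, and the other 8 at most 8913 bp. Separate peaks over a domain are not added up.

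In 20 domains H3K4me3 was under 1000 bp or absent in both P14 and both P21 libraries. The widest at P0 was chr11:95864083-95869555, which spanned 4902 and 5473 bp at P0, then 780 bp at P12, 415 and 488 bp at P14 and 615 bp in P21 replicate 1, with no peak in P21 replicate 2. Its H3K27Ac height was 11.3 and 10.4 at P0, and no later library had an H3K27Ac peak there. The next, chr4:97247125-97252735, went from 4509 and 5611 bp to 426 bp at P12, and at chr16:91221754-91228258 it went from 3467 and 6505 bp to 815 bp. The other two by the same rule were chr1:19198762-19205259 (3358 and 6498 bp, then 503 bp at P12) and chr5:108151938-108156180 (4228 and 4243 bp, then 688 bp). Of these 5, all but chr4:97247125-97252735 carried H3K27me3 in every library, and that one had none at P0 and carried it in all 4 libraries of P14 and P21. At chr5:108151938-108156180 H3K27Ac was called in no library.

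Another set was wider at every later stage. In 54 domains H3K4me3 was wider than in both P0 replicates in all 5 later wild-type libraries, a set chosen after its values were seen. At chr6:30119740-30128657 it went from 7171 and 8918 bp at P0 to 15830 bp at P12, 11872 and 15019 bp at P14, and 14848 and 14632 bp at P21. At chr3:87945430-87949060 it went from 3273 and 3631 bp to 13572 bp at P12, 13158 and 10021 bp at P14, and 14535 and 9870 bp at P21. Both carried H3K27me3 in both P0 replicates, and the second lacked it in all later libraries. H3K27Ac at chr6:30119740-30128657 had heights of 6.30 and 5.39 at P0, 24.5 in wild-type P12 retinae, 15.0 and 17.5 at P14 and 15.7 and 10.6 at P21.

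The later course of H3K27me3 divided the domains further. It was called in both P0, both P14 and both P21 libraries at 208 domains (kept), in none of these 6 libraries at 465 (never), in both P0 but no P14 or P21 library at 37 (lost) and in neither P0 but all P14 and P21 libraries at 65 (gained). H3K4me3 was broad in all 5 later wild-type libraries at 24 of the 37 domains that lost H3K27me3 (64.9%, interval 48.8 to 78.2%) and at 205 of the 465 that never had it (44.1%, interval 39.6 to 48.6%). The share was 17 of 65 (26.2%, interval 17.0 to 38.0%) where H3K27me3 was gained and 32 of 208 (15.4%, interval 11.1 to 20.9%) where it was kept. Broad in none of the 5 were 0 of the 37 domains that lost it (interval 0 to 9.41%), 75 of those that never had it (16.1%), 23 of those that gained it (35.4%) and 97 of those that kept it (46.6%). The plot by H3K27me3 course shows both shares. In all, H3K27me3 covered 96.7 and 114 Mb in the P0 libraries, 127 and 213 Mb at P14, and 142 and 152 Mb at P21. Over the class next in width it was called in 22.2% and 25.9% at P0 and 20.4% and 23.9% at P14. At P21 it was called in 21.7% and 23.6% of that class. Courses were not counted outside the domains, and whether the larger later coverage favoured gained over lost was not tested.

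**Figure D4:**
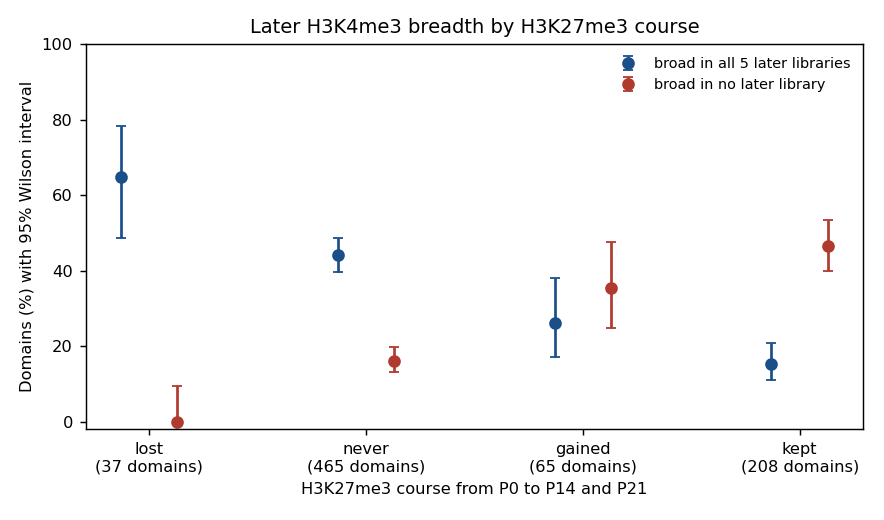
Share of domains (%) whose H3K4me3 was at least 3000 bp in all 5 later wild-type libraries (blue) or in none (red), by the course of H3K27me3 from P0 to P14 and P21, with Wilson 95% intervals for counting error. The blue share was 64.9% where H3K27me3 was lost and 15.4% where it was kept, and the red share was 0 and 46.6%.

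H3K27Ac also differed between these courses. Where H3K27me3 was lost, the median height was 6.82 and 7.54 at P0, 13.6 in the wild-type P12 library, 9.50 and 21 at P14, and 7.05 and 9.96 at P21. Where it was gained, the median was 11.4 and 11.9 at P0, 5.63 at P12, 3.34 and 7.42 at P14, and 0 and 4.64 at P21. In the domains that kept H3K27me3 it was 4.93 and 5.77 at P0 and 0 and 5.21 at P14. Domains that never had it stood at 14.1 and 14.2 at P0, 11.2 and 19.3 at P14, and 7.08 and 11.3 at P21. These heights were not scaled between libraries, so values compare groups of domains within a library. The P12 H3K27me3 libraries were made with another antibody by their labels (AB3 in place of AB1) and were left out of the courses.

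Single wide domains show these courses. The first in mean P0 width, chr17:86006833-86027783, gained H3K27me3, while chr13:83858462-83881532, the second, lost it and kept H3K27Ac heights of 15.2 and 13.4 at P21 after 20.1 and 20.4 at P0. At this second domain H3K27me3 had covered only 17.1% of the bases in each P0 library, since any overlap counted as carrying it. The next widest to gain H3K27me3, a set chosen after its values were seen, were chr2:105518562-105530934 and chr11:120090771-120101998. Among the wide domains with H3K27me3 in both P0 libraries, chr11:85642255-85655759, chr2:105506316-105518483, chr7:152119472-152129684 and chr3:34546915-34556510 carried it in all 9 libraries. The last of these spanned 7795 and 9596 bp at P0, 2203 bp at P12, 1949 and 2031 bp at P14 and 1835 and 1799 bp at P21. Its H3K27Ac height was 13.5 and 17.2 at P0, was at most 4.29 in the later libraries and had no peak in either P21 library.

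Whether H3K27Ac height changed from P0 was tested over all regions with an H3K27Ac peak in every one of the 9 libraries, by limma on log2 height scaled to a common median, with Benjamini-Hochberg adjustment over 6341 regions. Of these regions 595 lay over 554 domains, so domains that lacked H3K27Ac in any library were not tested. Between P0 and P14, 12 domain regions rose (2.02%) and 6 fell (1.01%), against 2% and 0.505% of all regions tested. Between P0 and P21, 17 rose (2.86%) and 12 fell (2.02%), against 3.67% and 0.883% of all regions. The median log2 change over domain regions was -0.00 at P14 and -0.07 at P21. Both comparisons use the same P0 libraries. Without scaling, in which the median of all regions moved by 0.18 at P14 and -0.44 at P21 on the log2 scale, 3 domain regions rose and 0 fell at P14, and 0 passed at P21. With every region that had a peak in at least 2 libraries in the fit, 1368 domain regions were tested. At P14, 30 rose (2.19%) and 192 fell (14%), against 6.30% and 4.73% of all 41468 regions, and at P21, 48 rose (3.51%) and 191 fell (14%), against 14.7% and 3.19% of all regions. In that fit the median log2 change was -0.22 and -0.23 over domain regions and 0.26 and 0.32 over all regions, and absent peaks counted as low values. A region with peaks only in the 2 P0 libraries thus entered as a fall, and one with peaks only at later stages as a rise. The domains were chosen at P0, so their larger share of falls can follow from this filter and is not read as a loss of H3K27Ac. These counts also rested on single libraries. At P14 the 18 calls became 2 without P0 replicate 1 (0.329%, against 0.653% of all regions), 1 without P0 replicate 2 (0.168%, against 0.142%) and 6 without P14 replicate 1 (0.987%, against 0.523%). At P21 the 29 calls became 6 without P0 replicate 1 (0.988%, against 2.60%), 5 without P0 replicate 2 (0.840%, against 0.550%), 3 without P21 replicate 1 (0.434%, against 0.161%) and 18 without P21 replicate 2 (3.03%, against 3.86%).

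The largest rise was at chr5:140382949-140386574. Its H3K27Ac height was 3.51 and 2.83 at P0, 19.9 in wild-type P12 retinae, 19.2 and 20.5 in Brg1-deficient retinae, 16.6 and 30.5 at P14, and 13.4 and 15.5 at P21, so the P0 libraries lay below all others. The log2 change was 2.65 ± 0.40 (SE) at P14 (adjusted p = 8.64e-05 by limma) and 2.63 ± 0.40 at P21 (adjusted p = 5.2e-05). It passed under all 8 settings run at P14, and at P21 under all but the one without scaling (adjusted p = 0.284). At chr7:36369115-36372189 the height was 3.64 and 4.21 at P0, 17.4 and 25.8 at P14, and 21.7 and 9.96 at P21, with log2 changes of 2.25 ± 0.45 (adjusted p = 0.00186) and 2.35 ± 0.45 (adjusted p = 0.000869). Its H3K4me3 spanned 3001 and 3075 bp at P0, 5188 bp at P12, 5396 and 6937 bp at P14, and 8154 and 7035 bp at P21. At chr15:31293513-31298333 H3K27Ac rose from 6.50 and 7.49 at P0 to 30.8 and 37.3 at P14, a log2 change of 2.10 ± 0.41 (adjusted p = 0.00186), and at chr7:133940622-133943809 it rose by 1.98 ± 0.45 (adjusted p = 0.00784). The one fall among the 5 largest changes at P14 was at chr18:55144194-55153214. The height of its tested H3K27Ac region went from 15.1 and 23.4 to 4.48 and 5.42, a log2 change of -2.11 ± 0.42 (adjusted p = 0.00186). Over the whole domain the highest H3K27Ac peak in P14 replicate 1 was 7.83. These 4 calls at P14 depended on the setting. Without P0 replicate 2 none of them passed, with adjusted p by limma of 0.088, 0.0826, 0.12 and 0.12 in the order given. Without P0 replicate 1 the first 3 did not pass (adjusted p = 0.0678, 0.0618 and 0.167), without P14 replicate 1 the second and the third did not (adjusted p = 0.0819 and 0.157), and without scaling the first and the fourth did not (adjusted p = 0.0748 and 0.149).

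At P21 the other large rises were at chr7:16459700-16465282, chr2:136537909-136541829 and chr14:49279422-49290016. The first, the domain without Brg1 named above, had heights over its whole H3K27Ac region of 3.90 and 8.09 at P0 and 20.6 and 13.5 at P21, a log2 change of 2.01 ± 0.46 (adjusted p = 0.00602). Its H3K4me3 measured 7304 bp at P12, 6645 and 12784 bp at P14, and 10647 and 8449 bp at P21, all above both P0 widths. The other two rose by 1.93 ± 0.42 (adjusted p = 0.00343) and 1.83 ± 0.44 (adjusted p = 0.0089). Without P21 replicate 1 none of these 3 passed, with log2 changes of 1.30, 2.07 and 1.20 and adjusted p by limma of 0.314, 0.0732 and 0.314, nor did chr7:36369115-36372189 (1.39, adjusted p = 0.197). None of these 4 passed without scaling, where the adjusted p ranged from 0.284 to 0.357. The first also did not pass without P0 replicate 1 (adjusted p = 0.227), and the other two did not without P0 replicate 2 (adjusted p = 0.0905 and 0.208). Of the 12 domains with a rise at P14, 8 had carried H3K27me3 in both P0 libraries and 0 did so in both P14 libraries, and 10 were broad in all 5 later libraries. Over the 554 domains tested, 79 (14.3%) had H3K27me3 in both P0 libraries and 53 in both P14 libraries, and 275 (49.6%) were broad in all later ones. Of the 17 that rose at P21, 13 had H3K27me3 in both P0 libraries and 15 were broad in all later ones. Of the 12 that fell at P21, 2 had it in both P0 libraries (16.7%, near the 14.3% of all tested) and 3 were broad throughout (25%).

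Between P14 and P21 little could be told apart. By limma, 0 domain regions differed in H3K27Ac (background 0% higher and 0% lower), with 32 at an unadjusted p under 0.05 (5.38%, against 5.69% of all regions). In H3K4me3 width, tested over 14958 regions of which 905 lay over 907 domains, 0 domain regions differed, against 0.00669% of all regions wider and 0.00669% narrower. At an unadjusted p under 0.05 there were 74 (8.18%, against 7.09% of all regions), 21 of them wider and 53 narrower at P21. Leaving out 1 P21 library changed this result. Without P21 replicate 1, 22 domain regions differed (2.43%), against 131 of all 14967 regions (0.875%), and without P21 replicate 2 there were 8 (0.878%), against 67 of 15596 (0.430%). Without scaling the medians of all regions moved by -0.60 for H3K27Ac height and 0.11 for H3K4me3 width.

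In Brg1-deficient retinae at P12 most domains still carried H3K4me3 and H3K27Ac. The widest H3K4me3 peak had a median of 3001 bp in the 1 Brg1-deficient library, against 3169 bp in the wild-type P12 library and 2841 and 3096 bp in the P14 libraries. At least 3000 bp was found in 461 domains (50.1%, interval 46.9 to 53.3%), against 550 in wild-type P12 retinae, and no peak in 6. Both P12 libraries were broad at 427 domains, the wild-type one alone at 123, the Brg1-deficient one alone at 34 and neither at 336. Between the P14 libraries, which share stage and genotype, both were broad at 374 domains, replicate 2 alone at 15, replicate 3 alone at 132 and neither at 399. The SD of the log2 width ratio over domains was 0.336 between the genotypes, 0.272 between the P14 libraries and 0.405 between the P21 libraries. The Brg1-deficient library held 855 peaks of at least 3000 bp in all and the wild-type P12 library 1080, so fewer broad domains accompanied fewer broad peaks genome-wide.

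Domains broad in the wild-type P12 library and both P14 libraries but not in the Brg1-deficient library numbered 20, and their Brg1-deficient widths started at 1520 bp, with 14 of at least 2500 bp. The reverse was found at 11 domains. After scaling, over the 907 domains in the fit, the Brg1-deficient library was the lowest of the 6 later libraries by at least 1.5-fold at 6 domains and the highest at 1. The wild-type P12 library was lowest in this way at 2 and highest at 5, P14 replicate 2 lowest at 9 and highest at 0, and P14 replicate 3 lowest at 2 and highest at 1. P21 replicate 1 was lowest at 13 and highest at 16, and P21 replicate 2 lowest at 22 and highest at 0.

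One domain stood apart. At chr12:85909599-85915473 H3K4me3 spanned 4620 and 5875 bp at P0, 4002 bp in wild-type P12 retinae, 2994 and 3244 bp at P14 and 4655 and 3109 bp at P21, but 530 bp in Brg1-deficient P12 retinae. It was the only domain past the threshold when genotypes were compared at P12, with a log2 change in width of -2.83 ± 0.17 (adjusted p = 0.0218 by limma), against 0.0134% of all 14958 regions narrower and 0% wider. With 1 H3K4me3 library per genotype at P12, the spread in this fit comes from the P0, P14 and P21 libraries, and the P12 libraries are assumed to vary like them. The P0 pair among these also chose the domains by its widths. With the P0 libraries left out of the fit, an alternative chosen after seeing the data, the log2 change was -2.82 ± 0.16 and did not pass (adjusted p = 0.109 by limma), nor did any other region. The call was also lost when regions with a peak in at least 2 libraries were fitted (adjusted p = 0.0909), without scaling (adjusted p = 0.0597) and with a replicate block (adjusted p = 0.144), and held with the summed length of H3K4me3 (adjusted p = 0.0017). The plot of widths by genotype shows this domain far below the line of equal width, beside the same plot for the P14 libraries.

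**Figure D5:**
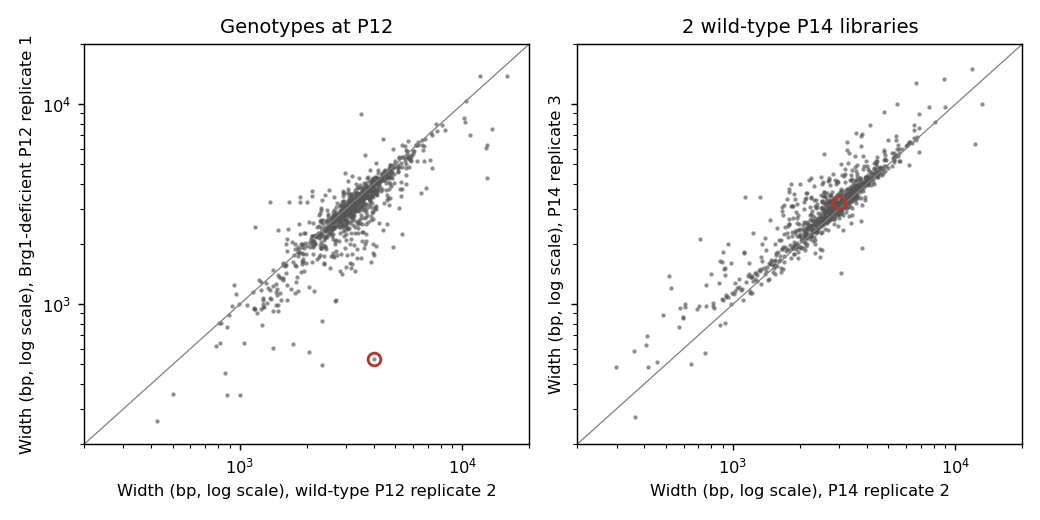
Width in bp (log scales) of the widest H3K4me3 peak over each domain in wild-type against Brg1-deficient P12 retinae (left) and in P14 replicate 2 against replicate 3 (right), with lines of equal width. Each panel shows the 914 domains with a peak in both libraries, and the red circle marks chr12:85909599-85915473, with 4002 and 530 bp on the left and 2994 and 3244 bp on the right.

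The other marks at chr12:85909599-85915473 were as follows. The height of H3K4me3 was 19.1 in wild-type and 3.23 in Brg1-deficient P12 retinae, against 33.8 and 45.0 at P0, 7.51 and 10.8 at P14 and 17.7 and 8.48 at P21. H3K27me3 was called in every wild-type library, both of P12 included, and not in the Brg1-deficient library. H3K27Ac had heights of 14 and 16.7 at P0, 5.19 in wild-type P12 retinae, 2.62 and 5.20 in Brg1-deficient retinae, 4.62 and 8.01 at P14 and 4.86 and 5.08 at P21. The domain held 1 Brg1 peak at P0, of 4929 bp and with a fold enrichment of 14.1. A second domain whose Brg1-deficient width was the lowest of the later libraries by at least 2-fold was chr18:65741767-65744783, with a Brg1 fold enrichment of 30.5. It measured 3022 and 3017 bp at P0, 2339 bp in wild-type P12 retinae, 499 bp in Brg1-deficient retinae, 1940 and 1962 bp at P14 and 2105 and 1949 bp at P21, and it did not pass the threshold. Its H3K4me3 height was 4.17 and 14.4 at P0, and 48.0 in wild-type and 5.69 in Brg1-deficient P12 retinae. Its H3K27Ac height was 13.2 in wild-type and 22.5 and 23.8 in Brg1-deficient P12 retinae. Wild-type libraries were also lowest by at least 2-fold after scaling, P21 replicate 2 at 5 domains and P14 replicate 2 and P21 replicate 1 at 1 each.

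Over all domains the genotype comparison gave few differences. In H3K4me3 width, 67 domain regions had an unadjusted p under 0.05 (7.40%, against 5.45% of all regions), 46 of them narrower in Brg1-deficient retinae, and the median log2 change was 0.03 after scaling. Without scaling the median of all regions moved by -0.09. In H3K4me3 height, 0 domain regions passed by limma, as did 0% of all regions higher and 0% lower, with 27 at an unadjusted p under 0.05 (2.98%, against 3.12% of all). The median log2 change in height was 0.11 over domain regions, and without scaling the median of all regions moved by -0.59. In H3K27Ac height, with 1 wild-type and 2 Brg1-deficient libraries at P12, 0 domain regions passed (background 0% in both directions), with 6 at an unadjusted p under 0.05 (1.01%, against 1.75% of all regions) and a median log2 change of -0.03. The shift without scaling was 0.23. With so few P12 libraries these counts do not show that the genotypes were alike.

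H3K27Ac was called over 86.5% of the domains in the wild-type P12 library and over 91.4% and 92.4% in the Brg1-deficient libraries. Its peaks covered 47.2% of the bases of the domains in the wild-type library and 53.5% and 55.1% in the Brg1-deficient ones. The class next in width had the same order, with 55.0% against 60.3% and 62.3%. H3K27me3 was called over 401 and 414 domains in the wild-type P12 libraries, 372 of them in both, and over 429 in the Brg1-deficient library. At 12 domains it was present in both wild-type libraries and not in the Brg1-deficient one, and at 35 the reverse held. Between the wild-type P12 libraries themselves, 29 domains had it in replicate 1 alone and 42 in replicate 2 alone. H3K27me3 covered 39.3% and 38.2% of the bases of the domains in the wild-type libraries and 38.5% in the Brg1-deficient one. In the class next in width these values were 24.2%, 25.5% and 25.3%. Of the 10 widest domains, 8 were narrower in the Brg1-deficient than in the wild-type P12 library and 2 were wider. The Brg1-deficient median was also lower over all domains (3001 against 3169 bp) and in the class next in width (2003 against 2099.5 bp). Covered bases gave the other order at chr13:83858462-83881532 (13581 against 14061 bp) and at chr3:17683013-17697173 (10738 against 10376 bp). The Brg1-deficient and wild-type P12 widths were 3764 and 4339 bp at chr17:86006833-86027783, 5471 and 5388 bp at chr13:83858462-83881532, and 8003 and 7589 bp at chr11:18907188-18921730. At chr2:105506316-105518483 they were 2233 and 5358 bp, while the P14 libraries, at 1825 and 3115 bp, lay on both sides of the Brg1-deficient value. They were 3149 and 4692 bp at chr11:85642255-85655759, against 2120 and 3399 bp at P14, and 2237 and 3699 bp at chr2:105518562-105530934, against 1118 and 1804 bp at P14. At the other 4 they were 4025 and 4921 bp, 2587 and 2858 bp, 3009 and 3171 bp, and 2724 and 2965 bp in order of P0 width.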

How the data were processed

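ChIP-Seq peak lists of 27 libraries were used, grouped by their labels. The submitters' processing notes list CASAVA, BWA 0.5.9-r26, Picard 1.65, SAMtools, R 2.14.0, MACS2 2.0.9, SICER 1.1, bedtools 2.17.0 and the mm9 build, without roles. For each peak of Brg1, H3K27Ac and H3K4me3 the authors deposited position, summit, a score, the fold enrichment over background (a ratio), and the −log10 p-value and −log10 q-value. For H3K27me3 the authors deposited islands with a score whose meaning is not stated. Scores were not used. Read depth is unknown, and weak peaks depend on it.

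The domains, lists and tests were chosen with earlier results of these data known. Overlaps needed 1 bp and were computed in Python 3.11.15 with numpy 2.4.6 and pandas 2.3.3. Wilson 95% intervals came from scipy 1.17.1, and figures from matplotlib 3.10.9. Peaks of a mark were merged into regions. Regions with a peak in every library entered limma 3.58.1 (R 4.3.3, lmFit and eBayes with trend) on log2 height or log2 width, median-centred, with 1 term per group, Benjamini-Hochberg adjustment over all regions and a threshold of 0.05. The fit was tested on simulated data. No count test was run, since peak lists hold no counts. Input libraries were not analysed here.

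Named domains were the 10 widest, the 5 highest in Brg1, the 5 widest without Brg1, with H3K27me3 at P0, or under 1000 bp at P14 and P21, the 5 largest changes past each threshold, and 3 on each side of the width limit. Alternatives were other width limits (2500 and 4000 bp), the strongest 50% of peaks, overlap at the summit, covered length or joined peaks in place of the widest peak, rank-matched limits, no scaling, peaks in at least 2 libraries, each replicate left out, a replicate block and, for H3K4me3 and chosen after seeing the data, the P0 libraries left out of the fit. The deviations of same-numbered replicates correlated with r between -0.0158 and 0.0377 for H3K27Ac, except 0.27 between P14 and P21, and with 0.0795 for H3K4me3, so the numbers were not taken to pair the samples.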

Additional observations from a re-analysis of the deposited data

How the results depend on the processing

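Of 83 alternative values for counts and shares, 40 stayed within 1.5 times the reported count or within the spread of the share, and 43 moved. For the single domains named from the fits, 58 of 85 values kept their call, 27 lost it and none changed direction. The cause of these moves was not tested unless the alternative itself changes what is counted.

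The number of domains was 1828 with a limit of 2500 bp and 269 with 4000 bp, and ranged from 954 to 1421 with 1 P0 replicate alone. The share with Brg1 was 99.3% at 4000 bp, 96.3% with the strongest 50% of Brg1 peaks and 86.8% at the summit. The share with H3K27Ac in both P0 replicates was 95.2%, 75.7% and 85.0% under these settings and 90.3 to 95.1% with 1 replicate. For H3K27me3 it was 26.1% with the strongest 50% and 25.2% at the summit, and 31.1 to 36.2% with 1 replicate. With covered bases, joined peaks or a limit matched by rank, the share of broad domains was 51.0%, 51.8% and 59.7% in both P14 libraries, 67.3%, 69.7% and 68.5% in wild-type P12 retinae, and 56.8%, 58.4% and 65.5% in Brg1-deficient retinae. With 1 library it was 42.3 to 55.0% at P14 and 46.5 to 69.8% at P21.

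For H3K27Ac height, requiring a peak in only 2 libraries gave 222 domain regions at P14, 239 at P21 and 3 between P14 and P21, against 18, 29 and 0, and 4576, 7409 and 518 of all 41468 regions. More regions enter this fit, and absent peaks count as low values. Regions with peaks only at P0 enter it as falls, and those with peaks only later as rises. Without scaling the numbers were 3, 0 and 1, and with each replicate left out they ranged from 1 to 25 at P14 and from 3 to 18 at P21. The replicate block gave 23, 37 and 0. For H3K4me3 width between P14 and P21 the range with each library left out was 0 to 22, and the block gave 0. Between genotypes at P12 the 1 call in width became 0 with a peak in at least 2 libraries, 0 without scaling, 0 with the replicate block and 0 with the P0 libraries left out of the fit, the last an alternative chosen after seeing the data. Height gave 0 under every setting run. Leaving out a P12 library was not possible where a genotype had 1. Unknown depth and the uneven H3K27Ac and H3K27me3 lists limit any comparison of absence between libraries.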
